A study of Mus musculus with 4 samples.

Results

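Whole mammary fat pad (MFP), the subcutaneous fat of the mouse mammary gland, was compared between aged and young female C57BL/6J mice for 9 genes of lipolysis and its adrenergic control, found by their symbols among the 55487 genes counted. They are Adrb1, Adrb3, Pde3b, Pnpla2, Lipe, Mgll, Abhd5, G0s2 and Aqp7, and all 9 had enough counts to be tested. The aged group holds 2 samples of 14 months and the young group 2 samples of 8 weeks, with no treatment named in the labels. The labels give the substrain as J, whereas the methods of the study name both J and a C57BL/6NCrl stock for injected mice. Samples are called biological replicates, without saying whether each was 1 animal or a pool, so the p-values measure only the spread between these samples. The fat pads were lysed whole, without isolation of adipocytes, and total RNA depleted of ribosomal RNA was sequenced with the strand kept.

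Lipolysis is the stepwise release of fatty acids and glycerol from the triglyceride of the fat droplet. Noradrenaline from sympathetic nerves acts on beta-adrenergic receptors, cyclic AMP rises, and protein kinase A phosphorylates the droplet coat and hormone-sensitive lipase, while insulin brakes the pathway by having cyclic AMP degraded. In white fat of rodents the pathway is known for the strong part played by the beta-3 receptor and for feeding other tissues during fasting.

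Libraries held 68803304 to 98402403 counts, and the 9 genes together took between 0.305% and 0.417% of a library, with Adrb1, the least abundant, at 1000 to 2632 counts. The 12 adipocyte markers together summed to 11204 CPM or more in every library. CPM are counts scaled for library depth, here after TMM, the trimmed mean of M-values by which edgeR makes libraries comparable. Each of the 12 reached 1 CPM in at least 1 library. Markers of other cells differed between libraries. Smooth muscle markers summed to 980 and 1302 CPM in the aged pads and 379 and 753 CPM in the young pads, without overlap. Of these 5 genes taken singly, only 1 lay above in the aged pads and 4 overlapped. Stromal markers summed to 1137 and 842 CPM in the aged pads and 1480 and 1722 CPM in the young pads, also without overlap. Singly, 3 of these 5 genes lay above in the aged pads, 1 lay below and 1 overlapped, so the lower sum does not describe most of the list. Over all genes tested, 23.3% lay above and 22.8% below. Young replicate 1 had the lowest sums of smooth muscle and of mammary epithelium (582 CPM, against 983 to 1227 CPM). The 12 skeletal muscle markers summed to 42760 and 68047 CPM in the aged pads and to 11217 and 15566 CPM in the young pads. The 7 immune markers summed to 1182 CPM in young replicate 1 and to between 104 and 240 CPM in the other samples, so that young replicate 1 stood apart from the rest. The part of these cells in the results below was not tested, and in such bulk tissue fewer cells of a type and less RNA per cell cannot be told apart.

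Promoter windows of RefSeq on GRCm38.p6, 250 bases before to 50 after a start site, were found for 7 of the 9 genes in 10 windows. The 3 shown belong to the lipases with the highest counts and to Abhd5, because the level of Pnpla2 relative to Abhd5 is described below. Capitals mark matches on either strand to the E-box CACGTG, the GC box GGGCGG, the nuclear receptor half-site AGGTCA, the cyclic AMP response half-site TGACG and the TATA box TATAAA, and overlapping matches were each counted. The window of Pnpla2 lies at chr7:141454938-141455237 on the plus strand, that of the upstream start of Lipe at chr7:25395938-25396237 on the minus strand, and that of Abhd5 at chr9:122351366-122351665 on the plus strand.
Pnpla2: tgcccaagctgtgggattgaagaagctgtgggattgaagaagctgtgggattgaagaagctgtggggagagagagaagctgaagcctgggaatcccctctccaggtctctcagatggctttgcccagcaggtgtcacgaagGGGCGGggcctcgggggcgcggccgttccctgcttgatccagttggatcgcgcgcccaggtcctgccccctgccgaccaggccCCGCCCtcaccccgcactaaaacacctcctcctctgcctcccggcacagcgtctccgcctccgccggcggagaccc
Lipe: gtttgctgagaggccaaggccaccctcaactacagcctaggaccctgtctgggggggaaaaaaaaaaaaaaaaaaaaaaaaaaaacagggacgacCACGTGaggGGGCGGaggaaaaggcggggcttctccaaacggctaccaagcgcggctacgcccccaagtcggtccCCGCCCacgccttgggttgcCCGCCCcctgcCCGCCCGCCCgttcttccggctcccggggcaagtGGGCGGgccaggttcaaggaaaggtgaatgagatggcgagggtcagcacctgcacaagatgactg
Abhd5: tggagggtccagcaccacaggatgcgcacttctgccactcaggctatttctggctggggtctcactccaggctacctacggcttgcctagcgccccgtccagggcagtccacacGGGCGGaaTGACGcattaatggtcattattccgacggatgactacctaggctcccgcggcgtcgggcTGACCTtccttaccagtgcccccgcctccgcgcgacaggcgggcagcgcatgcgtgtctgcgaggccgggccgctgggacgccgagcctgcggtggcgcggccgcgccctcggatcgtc
The Lipe window shown held 1 E-box and 6 GC boxes, and the Pnpla2 window 2 GC boxes. The Abhd5 window held 1 GC box, 1 nuclear receptor half-site and 1 cyclic AMP response half-site. The window of the downstream start of Lipe held 0 matches to these motifs, and which start is used in the fat pad was not tested. A GC box was found in 7 of the 10 windows, from 6 of the 7 genes, and in 35.7% of all 32851 windows of this length. The nuclear receptor half-site was found in 3 of the 10 windows, from Abhd5 and Aqp7, and in 16.3% of all windows. The Aqp7 windows overlap and share a half-site, which is counted in each. The cyclic AMP response half-site was found in 4 of the 10 windows, from 4 genes, and in 20.8% of all windows. The E-box was found in 2 of the 10 windows, from Lipe and Mgll, against 7.15% of all windows, and the TATA box in 0 of the 10 windows against 13.6% of all. A match describes these letters in this window and not a bound site.

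None of the 9 genes passed the test between aged and young MFP. EdgeR's quasi-likelihood test called 0 of 9 at a Benjamini-Hochberg adjusted p under 0.05, against a background of 0% of 22485 genes tested, and 0 of 9 had an unadjusted p under 0.05, against 7.24% of all genes higher and 3.31% lower in aged MFP. DESeq2 also called 0 of the 9 genes, where it called 3.86% of the genes it could adjust, and limma voom called 0 of 9. Fold changes (log2, aged over young) were above 0 for 7 of the 9 genes, with a median of 0.40, where they were above 0 for 47.0% of all genes tested, with a median of -0.04. In 5 of the 9 genes (Pnpla2, Lipe, Mgll, Adrb1 and Adrb3) both aged samples lay above both young samples, as they did in 23.3% of all genes, and in 0 of the 9 both lay below, as in 22.8% of all genes. These counts depend on how the libraries are scaled. With the upper quartile Pnpla2, Lipe and Adrb3 lay above and 0 of the 9 below, against 20.7% and 25.7% of all genes. Scaling by total counts only moved the median of all genes by -0.18. Pnpla2 alone then lay above in aged MFP, against 13.4% of all genes, and Abhd5 alone below, against 36.9%. With that scaling 6 of the 9 fold changes were above 0. Leaving out young replicate 1 left Pnpla2, Lipe, Mgll, Adrb1 and Adrb3 above, where 38.4% of all genes were above. It put 2 genes below, Abhd5 and G0s2, where 38% of all genes were below. Leaving out aged replicate 1 also left these 5 above, against 32.7% of all genes, with Pde3b and Aqp7 below, against 31.7%. Leaving out aged replicate 2 put 7 above, against 33.1%, and Abhd5 below, against 34.5%. Leaving out young replicate 2 put 6 above, against 41.4%, and 0 below, against 42.3%.

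**Figure D1:**
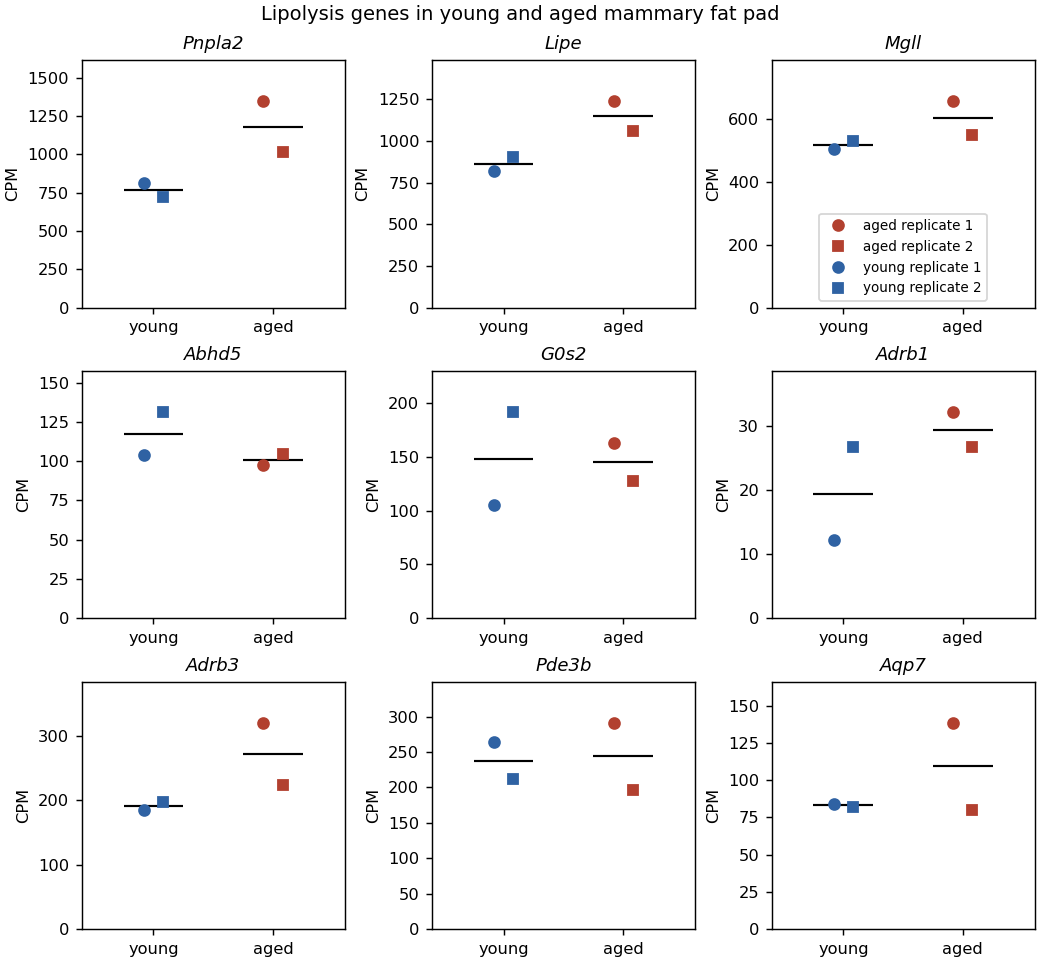
Level of each of the 9 genes in CPM (vertical axes, each from 0) in the 2 young and 2 aged samples, with the symbol showing the replicate number and the line the mean. Both aged points lie above both young points for Pnpla2, Lipe, Mgll, Adrb1 and Adrb3, by a narrow margin for Adrb1 (26.7 CPM on both sides).

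The receptors that receive the adrenergic signal were present at unequal levels. Adrb3 (ENSMUSG00000031489, chromosome 8, 27225776 to 27250616, minus strand, GENCODE M21 on GRCm38), the beta-3 receptor of adipocytes, was at 321 and 223 CPM in aged replicates 1 and 2 and at 185 and 197 CPM in young replicates 1 and 2. Aged replicate 1 was the highest sample and the other three lay close together. Aged pads averaged 272 ± 69.0 CPM and young pads 191 ± 9.05 CPM (SD, n = 2 each), and the difference was 0.51 on the log2 scale (SE 0.23, 95% interval -0.11 to 1.13, edgeR adjusted p = 0.509). Without aged replicate 1 the log2 fold change was 0.21. Adrb3 shares 839 bases of exon with the antisense gene Gm45470, which held 193 to 322 counts where Adrb3 held 14565 to 26217, and whether counting used the strand is not given in the sources used here.

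Adrb1 (ENSMUSG00000035283, chromosome 19, 56722199 to 56733113, plus strand), the beta-1 receptor, known also from the heart, was at 32.2 and 26.7 CPM in the aged pads and at 12.2 and 26.7 CPM in the young pads. Only young replicate 1, the library with the high immune markers, was apart from the others. The difference between the ages was 0.60 in log2 (SE 0.43, 95% interval -0.57 to 1.77, edgeR adjusted p = 0.588), and it was 0.14 without young replicate 1 and 1.28 without young replicate 2. In young replicate 1 the epithelial and smooth muscle markers were lowest as well, and their part in this value was not tested. Per kilobase of exon, Adrb3 was 9.98 and 8.36 times as abundant as Adrb1 in the aged pads and 15.2 and 7.41 times in the young pads, so that the ages overlapped in this ratio.

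Pde3b (ENSMUSG00000030671, chromosome 7, 114415281 to 114539251, plus strand), the phosphodiesterase through which insulin lowers cyclic AMP in adipocytes, was at 291 and 197 CPM in the aged pads and at 263 and 211 CPM in the young pads. The aged samples lay on either side of the young ones. Aged over young was 0.04 in log2 (SE 0.26, 95% interval -0.67 to 0.75, edgeR adjusted p = 0.957), and its sign changed with total counts only (-0.13), without aged replicate 1 (-0.28) and without young replicate 2 (-0.099). Adrb3 relative to Pde3b, per kilobase of exon, was 2.97 and 3.06 in the aged pads and 1.89 and 2.52 in the young pads. The ages did not overlap in this ratio (exact two-sided permutation p = 0.33, the smallest that 2 samples against 2 allow).

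The lipases act in sequence, and their RNA ranked between 70 and 142 among the genes tested by mean CPM, which is not corrected for length. Pnpla2 (ENSMUSG00000025509, chromosome 7, 141455198 to 141460743, plus strand) encodes adipose triglyceride lipase, which removes the first fatty acid of a triglyceride. It was at 1347 and 1017 CPM in the aged pads and at 812 and 719 CPM in the young pads, and ranked 73 among the 22485 genes tested by mean CPM. The ages did not overlap under any of the 4 scalings tried. Aged pads averaged 1182 ± 233 CPM and young pads 765 ± 65.8 CPM (SD, n = 2 each), and the difference was 0.63 on the log2 scale (SE 0.25, 95% interval -0.05 to 1.30, edgeR adjusted p = 0.49, DESeq2 adjusted p = 0.231). The log2 fold change ranged from 0.40 to 0.82 when each sample was left out in turn.

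Lipe (ENSMUSG00000003123, chromosome 7, 25379527 to 25398710, minus strand) encodes hormone-sensitive lipase, which cleaves diglycerides and is a target of protein kinase A. It was at 1238 and 1059 CPM in the aged pads and at 818 and 902 CPM in the young pads, and ranked 70 by mean CPM. The ages did not overlap, and the nearest pair was aged replicate 2 and young replicate 2. On the log2 scale the ages differed by 0.42 (SE 0.22, 95% interval -0.17 to 1.01, edgeR adjusted p = 0.532), and it ranged from 0.29 to 0.53 with each sample left out. Lipe shares 918 bases of exon with the antisense gene 4732471J01Rik, which held 439 to 561 counts against 66542 to 101210 for Lipe.

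Mgll (ENSMUSG00000033174, chromosome 6, 88724412 to 88828360, plus strand) encodes monoglyceride lipase, which releases the last fatty acid and also degrades an endocannabinoid. It was at 656 and 550 CPM in the aged pads and at 505 and 528 CPM in the young pads. Aged replicate 2 was nearer to the young samples than to aged replicate 1. The estimate for aged over young was 0.22 in log2 (SE 0.19, 95% interval -0.29 to 0.74, edgeR adjusted p = 0.633), and it was 0.079 without aged replicate 1 and 0.047 with total counts only. Lipe relative to Mgll, per kilobase of exon, was 1.63 and 1.66 in the aged pads and 1.40 and 1.47 in the young pads. The ages did not overlap in this ratio (exact two-sided permutation p = 0.33, the smallest that 2 samples against 2 allow).

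**Figure D2:**
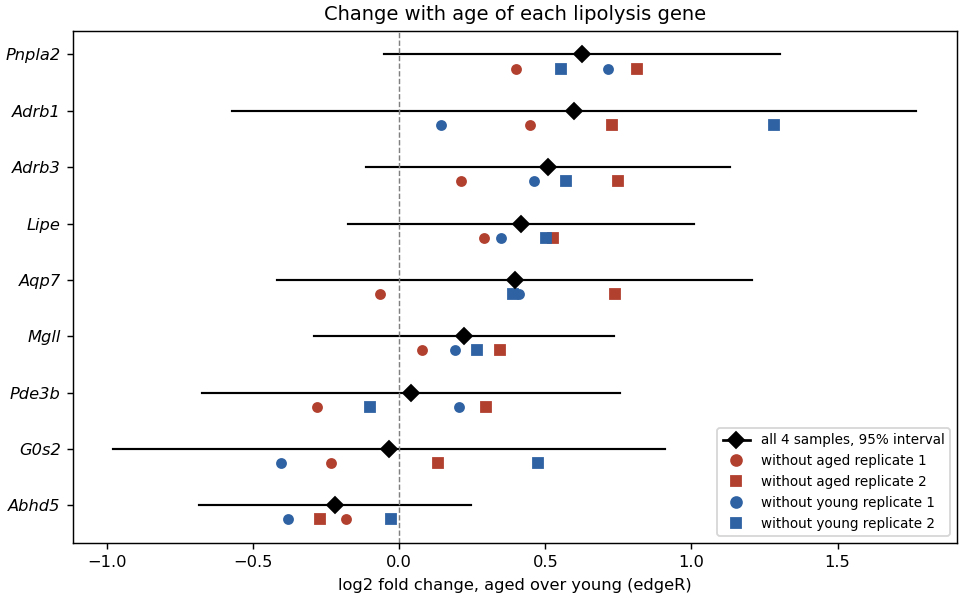
Log2 fold change of each gene between aged and young MFP (horizontal axis, above 0 higher in aged) from edgeR with all 4 samples (diamond, line for the 95% interval) and without each sample in turn (coloured points). Every interval includes 0, and the points for Aqp7, Pde3b and G0s2 fall on both sides of 0.

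The protein regulators of adipose triglyceride lipase both overlapped between the ages. Abhd5 (ENSMUSG00000032540, chromosome 9, 122351608 to 122381524, plus strand) encodes CGI-58, the activator of that lipase, which is held at the droplet by perilipin until stimulation. It was at 97.3 and 104 CPM in the aged pads and at 104 and 131 CPM in the young pads. Only young replicate 2 stood above the rest. The ages differed by -0.22 in log2 (SE 0.17, 95% interval -0.69 to 0.25, edgeR adjusted p = 0.609), negative with each sample left out (-0.38 to -0.03).

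G0s2 (ENSMUSG00000009633, chromosome 1, 193272161 to 193273217, minus strand) encodes a small inhibitor of adipose triglyceride lipase and lies within the span of Lamb3 on the other strand, without shared exons. It was at 163 and 127 CPM in the aged pads and at 105 and 192 CPM in the young pads. The young samples were the lowest and the highest of the 4, and the log2 fold change was -0.03 (SE 0.34, 95% interval -0.98 to 0.91, edgeR adjusted p = 0.971). It was -0.40 without young replicate 1 and 0.47 without young replicate 2.

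Ratios within a library do not depend on the scaling between libraries. Per kilobase of exon, Pnpla2 was 27.3 and 19.2 times as abundant as Abhd5 in the aged pads and 15.4 and 10.8 times in the young pads. The ages did not overlap, and the log2 ratio differed by 0.83 between the ages (exact two-sided permutation p = 0.33, the smallest that 2 samples against 2 allow). Pnpla2 relative to G0s2 was 2.39 and 2.30 in the aged pads and 2.22 and 1.08 in the young pads, a difference of 0.60 in log2 ratio (exact permutation p = 0.33), with young replicate 2 apart from the others. Lipe relative to Pnpla2 was 0.472 and 0.534 in the aged pads and 0.517 and 0.643 in the young pads, and the ages overlapped. The 6 ratios were chosen with the counts known, and no share over other gene pairs was computed.

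**Figure D3:**
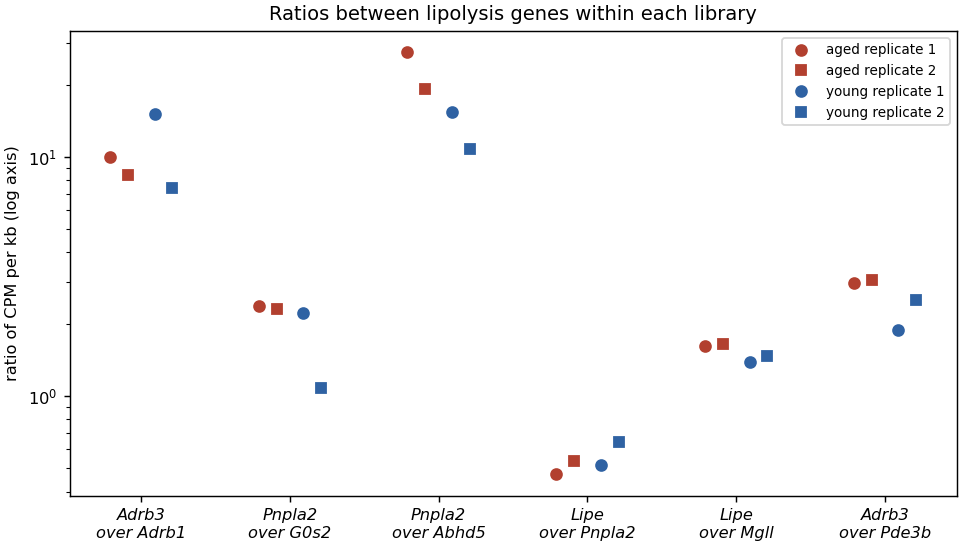
Ratio of CPM per kilobase of exon between pairs of the genes (vertical log axis) within each of the 4 libraries. Pnpla2 over Abhd5 is 19.2 or more in the aged pads and 15.4 or less in the young pads, while Adrb3 over Adrb1 is highest in young replicate 1.

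Glycerol leaves the adipocyte through a channel of the aquaporin family. Aqp7 (ENSMUSG00000028427, chromosome 4, 41033074 to 41048139, minus strand), the aquaglyceroporin of adipocytes, was at 139 and 80.2 CPM in the aged pads and at 84.1 and 82.3 CPM in the young pads. Only aged replicate 1 was high, and aged replicate 2 was the lowest sample. Aged over young came to 0.40 in log2 (SE 0.30, 95% interval -0.42 to 1.21, edgeR adjusted p = 0.603), and it was -0.06 without aged replicate 1.

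Levels of the 9 genes can be ordered only per length, as mean CPM per kilobase of merged exons over the 4 samples. Pnpla2 was first at 322, followed by Lipe at 171, G0s2 at 169, Mgll at 110, Adrb3 at 68.5, Aqp7 at 34.1, Pde3b at 26.4, Abhd5 at 18.3 and Adrb1 at 7.23. The range over samples of Pnpla2 (238 to 446) lay above that of Lipe (139 to 210), and the lowest Mgll value (99.5) above the highest of Adrb3 (94.97). Adrb3 (54.7 to 94.97) lay above Aqp7 (28.4 to 49.0), and Abhd5 (16.3 to 22.0) above Adrb1 (3.61 to 9.52). The neighbours Lipe and G0s2, G0s2 and Mgll, Aqp7 and Pde3b, and Pde3b and Abhd5 overlapped in their ranges.

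The adipocyte markers themselves had larger sums over the 12 genes in aged MFP, 19944 and 15370 CPM in the aged pads and 11204 and 12093 CPM in the young pads. In 9 of the 12, Adipoq and Lep among them, the aged pads lay above the young without overlap, against 23.3% of all genes. EdgeR called 0 of the 12, with 3 at an unadjusted p under 0.05 (7.24% of all genes in this direction), and DESeq2 called 1, Lep (3.17% of all genes in this direction). The mean log2 level of the 12 markers differed by 0.46 between the ages. Relative to that mean in the same library, 0 of the 9 lipolysis genes lay without overlap above the young pads, where 7.00% of all genes did. Mgll, Abhd5 and Pde3b had both below, where 55.4% of all genes did, and the other 6 overlapped. Without aged replicate 1, 7 of the 9 lay below, against 60.0% of all genes. Without young replicate 1, 6 lay below, against 70.9%, and Pnpla2 lay above, against 12.4%. Without aged replicate 2, 3 lay below, against 70.8%, and Pnpla2, Adrb3 and Aqp7 lay above, against 9.52%. Without young replicate 2, 3 lay below, against 67.9%, and Adrb1 lay above, against 19.3%.

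Relative to the adipocyte markers, the log2 level of Pnpla2 was 0.79 and 0.60 in the aged pads and 0.65 and 0.43 in the young pads, a difference of 0.15 between the ages (exact permutation p = 0.667). For Lipe the values were 0.67 and 0.65 in the aged pads and 0.67 and 0.76 in the young pads, a difference of -0.05 (exact permutation p = 0.667). Both lipases thus overlapped between the ages on this scale. Abhd5 had the most negative difference, -0.67, with -3.00 and -2.69 in the aged pads and -2.31 and -2.02 in the young pads (exact permutation p = 0.33, the smallest possible). Pde3b differed by -0.44, Mgll by -0.25 and Adrb3 by 0.02. With Adipoq alone as the reference, 8 of the 9 genes had both aged samples below both young samples, as did 71.9% of all genes, and 0 had both above, as did 2.31%. With the median of the markers the counts were 5 below and 0 above, against 57.6% and 5.65% of all genes.

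**Figure D4:**
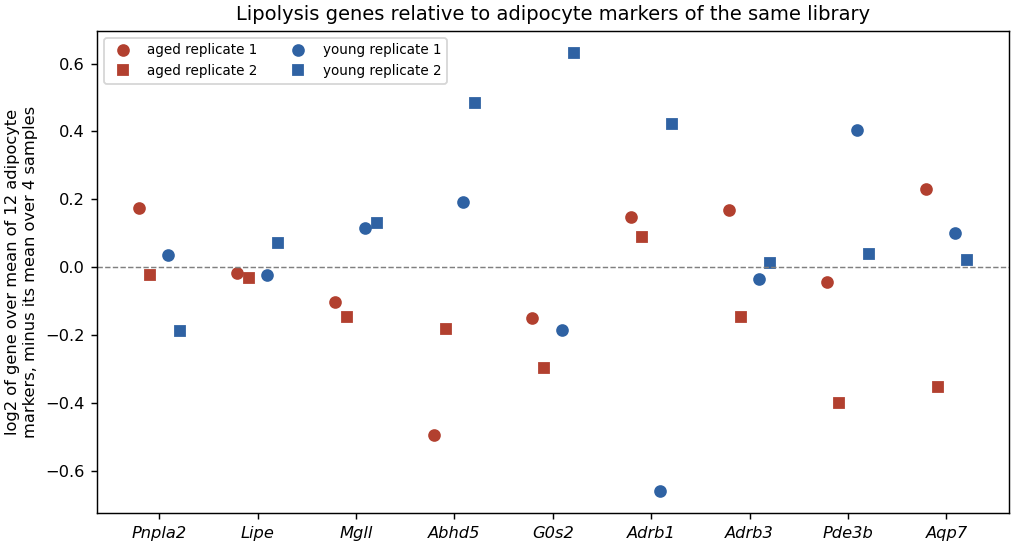
Log2 level of each gene relative to the mean of 12 adipocyte markers in the same library, centred on the mean of the 4 samples (vertical axis), for each sample. Aged points lie below young points for Mgll, Abhd5 and Pde3b, and the ages overlap for the other 6 genes.

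The other genes of the pathway were followed in 10 lists that hold 98 genes besides the 9, of which 95 had enough counts to be tested. EdgeR called 0 of the 95, and 16 had an unadjusted p under 0.05, all of them higher in aged MFP, against 7.24% of all genes higher and 3.31% lower. Of the 95 genes, 40 (42.1%) had both aged samples above and 11 (11.6%) both below the young samples, against 23.3% and 22.8% of all genes. DESeq2 called 6 of them (6.32%), Prkar2a, Adra2c, Npy1r, Npr3, Maob and Ppargc1a, all higher in aged MFP, where it called 3.17% of all genes higher and 0.692% lower.

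Between receptor and lipase, the 13 genes of the cyclic AMP and protein kinase A list had a median of 0.31 in log2, with 8 above and 5 below 0. Prkar2a, a regulatory subunit of protein kinase A, was at 101 and 128 CPM in the aged pads and 44.2 and 59.4 CPM in the young pads, which is 1.15 on the log2 scale (edgeR adjusted p = 0.374, DESeq2 adjusted p = 0.00791). Prkar2b, the regulatory subunit that predominates in adipocytes, had a log2 fold change of -0.24, with both aged samples below both young samples. Adcy7, an adenylyl cyclase known from immune cells, had -1.96, and it was at 177 CPM in young replicate 1, the library with the high immune markers, and at 23.3 to 44.1 CPM in the others. Without young replicate 1 the log2 fold change of Adcy7 was -0.63.

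Receptors that lower cyclic AMP through the inhibitory G protein, with its subunits, formed a list of 13 genes with a median of 0.15, 8 above and 5 below 0. Npy1r, a receptor of neuropeptide Y, was at 7.11 and 7.61 CPM in the aged pads and 2.10 and 2.25 CPM in the young pads, which is 1.76 on the log2 scale (SE 0.24, edgeR adjusted p = 0.36, DESeq2 adjusted p = 1.48e-08), and it ranged from 1.71 to 1.82 with each sample left out. Adra2c, an alpha-2 receptor, had 2.23 at a low level, with 78 and 113 counts in the aged pads and 11 and 25 counts in the young pads (edgeR adjusted p = 0.417, DESeq2 adjusted p = 0.0498). Adra2a, the alpha-2 receptor that opposes the beta receptors, and Adora1, the adenosine receptor of adipocytes, overlapped between the ages, with 0.022 and 0.15, and both changed sign with total counts only (-0.16 and -0.024). Adora1 shares 1162 bases of exon with Mybph on the other strand, a muscle gene that held 1483 to 9704 counts where Adora1 held 4458 to 6514, so the value of Adora1 is uncertain without the strand setting. Hcar2, the receptor of niacin and beta-hydroxybutyrate, had -0.21, with both aged samples below both young samples.

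On the braking side, the 14 other phosphodiesterases that degrade cyclic AMP had a median of 0.13, with 7 above and 7 below 0. Pde1b had -0.72 and 0.43 without young replicate 1, and Pde7b had 0.66 and 0.44 without that sample. The 11 genes of the insulin signal had a median of 0.31, 9 above and 2 below 0, with Irs2 at 0.43 (-0.17 without aged replicate 1) and Pik3r1 at 0.40 (0.12 without young replicate 1), and both overlapped between the ages. The 5 genes of the natriuretic peptide arm, which signals through cyclic GMP rather than cyclic AMP, had a median of 0.62. Npr3, the clearance receptor of natriuretic peptides, was at 393 and 278 CPM in the aged pads and 182 and 144 CPM in the young pads, which is 1.04 on the log2 scale (SE 0.25, edgeR adjusted p = 0.406, DESeq2 adjusted p = 0.029). Npr1, the signalling receptor, overlapped between the ages with -0.17. Prkg1, the kinase driven by cyclic GMP, had 1.08, with 0.61 without young replicate 1 and 1.79 without young replicate 2.

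At the droplet, the 9 listed proteins had a median of 0.41, with 8 above and 1 below 0. Plin1, the perilipin that holds Abhd5, was at 1496 and 1019 CPM in the aged pads and 1002 and 1007 CPM in the young pads, so aged replicate 1 alone was high, and its log2 fold change of 0.32 was 0.01 without that sample. Cidec, a protein of droplet fusion, showed the same, with 0.47 and 0.01 without aged replicate 1. Plin4 had 0.94 and 0.14 without aged replicate 1, and these 3 genes are also among the adipocyte markers. Hilpda, which inhibits adipose triglyceride lipase as G0s2 does, had -0.65, at 3.45 and 2.81 CPM in the aged pads and 5.18 and 4.66 CPM in the young pads.

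The 8 other hydrolases of neutral lipids had a median of 0.33, with Ces1d, a carboxylesterase of adipocytes, at 0.95 (0.51 without aged replicate 1) and Ces1f at 0.56 (0.27 without aged replicate 1), though members of this family are close in sequence and may share reads. The 6 genes that handle the released glycerol and fatty acids had a median of -0.47, with 5 of 6 below 0. That median lies between Gk and Fabp5. Fabp5, named after its values were seen, had -0.47, with 0.080 without aged replicate 1 and -1.40 without aged replicate 2. Gk, the glycerol kinase, had -0.47, and its level was low, from 10.9 to 19.2 CPM, with -0.21 without young replicate 2. Aqp9, another aquaglyceroporin, had -1.04 at 27 to 75 counts, Aqp3 had -0.95 with 263 counts in young replicate 1 and 18 to 114 in the others, and 1.86 without that sample, and Fabp4, the fatty acid carrier, was the gene above 0 at 0.20 (0.068 without aged replicate 1).

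Sympathetic neurons have their cell bodies outside the fat pad. Th and Dbh, 2 enzymes of noradrenaline synthesis, held 0 to 7 counts and Npy held 0 counts in every library, which allows up to 0.0407 CPM. Of the other 7 genes of supply and clearance, 6 were above 0, with a median of 0.58. Maob, a monoamine oxidase, was at 37.8 and 41.3 CPM in the aged pads and 19.8 and 23.4 CPM in the young pads, which is 0.87 on the log2 scale (edgeR adjusted p = 0.374, DESeq2 adjusted p = 0.00921). Slc6a2, the noradrenaline transporter, had 2.32 at 66 and 121 counts in the aged pads and 10 and 23 counts in the young pads (edgeR adjusted p = 0.418), and Ddc had -1.33, with 64 counts in young replicate 1 and 12 to 17 in the others, and 0.20 without that sample. Among the 9 transcription factors the median was -0.10, with Ppargc1a, a coactivator of mitochondrial genes, at 0.73 (edgeR adjusted p = 0.409, DESeq2 adjusted p = 0.0401) and Egr1, an immediate early gene, at -1.39 and at -0.32 without young replicate 2.

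**Figure D5:**
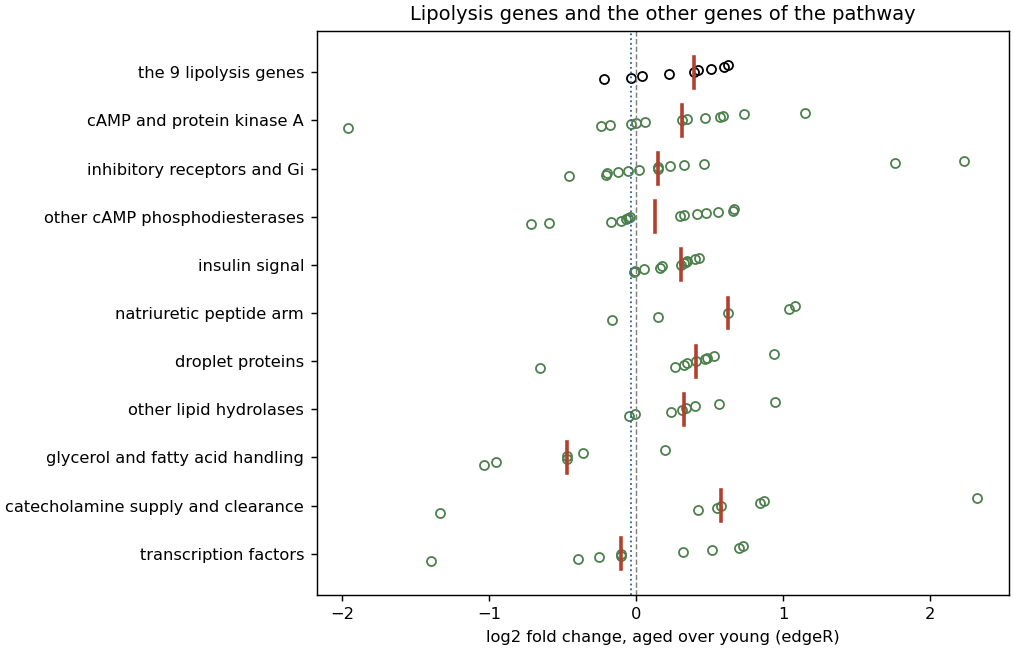
Log2 fold change between aged and young MFP (horizontal axis, above 0 higher in aged) of the 9 lipolysis genes and of the genes tested in 10 lists of the pathway, 1 circle a gene, with the median of each list as a vertical bar and the median of all genes tested (-0.04) as a dotted line. The median of the glycerol and fatty acid handling list is -0.47 and that of the 9 lipolysis genes 0.40.

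The genes whose pattern over the 4 samples was most like that of a lipolysis gene were found by the root mean square difference between centred log2 CPM profiles, over 13876 genes of at least 1 CPM, for the 7 lipolysis genes that spanned 0.5 or more. The nearest to Pnpla2 were Zbtb4 (0.024) and Bgn (0.037), to Lipe Fam168a (0.015) and Sik2 (0.018), and to Adrb3 Mmrn2 (0.020) and Ripply3 (0.021). The nearest to Adrb1 were Arhgap42 (0.013) and Cep170b (0.018), to G0s2 Carmil1 (0.014) and Zfp853 (0.019), to Pde3b Muc3a (0.027) and Cetn4 (0.042), and to Aqp7 Tmem119 (0.026) and Cidec (0.043). Among the 9 genes themselves the nearest pair was Lipe and Mgll (0.10), followed by Lipe and Adrb3 (0.11) and by Pnpla2 and Adrb3 (0.12). The number of genes within 0.1 was 31 for Aqp7, 43 for Pde3b, 59 for Pnpla2, 68 for Adrb1, 98 for Adrb3, 174 for G0s2 and 344 for Lipe.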

How the data were processed

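RNA of MFP was measured in 2 aged and 2 young samples. The file the authors deposited holds raw read counts for each gene in 1 column per sample, neither normalized nor pooled. The submitters' processing notes name featureCounts, R 3.6.1 and GRCm38, and the methods name DESeq2; the aligner, annotation and strand setting are not given in the sources used here. Groups and replicate numbers came from the sample titles.

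The counts were analysed in R 4.3.3 (edgeR 4.0.16, with limma 3.58.1 and DESeq2 1.42.0 as alternatives). The 22485 genes passing filterByExpr got TMM factors, and glmQLFit with glmQLFTest compared the ages, without covariates, at 0.05 after Benjamini-Hochberg adjustment. SE is the size of the log2 fold change over the root of F. CPM rest on scaled depth, and centred log2 profiles a prior count of 2. The aged libraries summed to 83936413 and 98402403 counts, the young to 77661766 and 68803304, so 3 counts equal at most 0.0407 CPM, for counting error only. Single values were compared by exact two-sided permutation. Coordinates and merged exon lengths come from GENCODE M21 and promoters from RefSeq. The code was tested on simulated counts.

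The lipolysis genes, the pathway lists, the markers and the ratios were chosen with earlier results of these data known. Named are all 9 genes, the 2 largest absolute log2 fold changes in each list, direct partners (Plin1, Cidec, Hilpda, Prkar2b, Adora1, Hcar2, Adra2a, Npr1, Npr3, Gk, Fabp4) and the 2 genes of most similar profile; Npy1r and Adra2c, Prkar2a and Ppargc1a fall under that rule, while Maob, Adipoq, Lep, Th, Dbh and Npy were named after their values were seen. Alternatives were other scalings, dropping the filter or asking for 10 counts in each library, scaling without muscle markers, DESeq2, limma voom, the replicate number as a block and leaving out each sample. The crossed block, the newer (not legacy) quasi-likelihood fit and a robust form were added after seeing the data.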

Additional observations from a re-analysis of the deposited data

How the results depend on the processing

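The 9 log2 fold changes were recomputed under 16 alternatives each. Of the 144 values, 135 kept their direction and stayed above an adjusted p of 0.05, 9 changed sign, and the smallest adjusted p was 0.071, for Adrb1 without young replicate 2. The sign changes were in G0s2 (0.018 with limma voom, 0.0191 with the replicate block and 0.0191 with the crossed block), Pde3b (-0.13 with total counts only) and values without 1 sample. Without each sample in turn, where an age left with 1 sample is assumed to vary like the other, values ran from -0.40 to 0.47 in G0s2, from -0.28 to 0.30 in Pde3b and from -0.065 to 0.74 in Aqp7. The number of the 9 genes called stayed at 0 under every alternative, while DESeq2 called 6 genes of the pathway lists where edgeR called 0, and the cause was not tested.

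Relative to the adipocyte markers, the difference between the ages became -0.36 for Pnpla2, -0.28 for Adrb1 and -0.49 for Adrb3 with Adipoq alone, and -0.063 for Adrb3 with the median of the markers. Without each sample in turn it ranged from -0.30 to 0.78 for Adrb1, from -0.13 to 0.18 for Adrb3 and from -0.41 to 0.17 for Aqp7.

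The sample titles give replicate numbers and name no pairing or batch. After each age's mean was taken off, same-numbered samples correlated at -0.48 across genes, which are not independent replicates. With 2 samples per age the opposite pairing takes the opposite sign by construction, so this value cannot tell whether any samples share a batch. With the replicate block 0 genes of all tested were called (1346 at an unadjusted p under 0.05, against 2371 without it), and no other call changed. The crossed block called 0 genes. With 2 samples per age, depth does not limit these abundant genes, whereas Th, Dbh and Npy lie near or under the smallest count told from 0.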

Other observations

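Genes of brown and beige fat, in which Adrb3 and lipolysis feed heat production, lay in both directions. Ucp1, the uncoupling protein, was at 13.1 and 10.1 CPM in the aged pads and 21.8 and 18.1 CPM in the young pads, which is -0.78 on the log2 scale (SE 0.23, edgeR adjusted p = 0.432, DESeq2 adjusted p = 0.127). Cox8b, a respiratory chain subunit of brown fat and muscle, was at 53.7 and 66.1 CPM in the aged pads and 32.7 and 32.5 CPM in the young pads, which is 0.88 on the log2 scale (edgeR adjusted p = 0.37, DESeq2 adjusted p = 0.00958). Of the 7 genes listed, 4 had both aged samples above and 2 both below the young samples, against 23.3% and 22.8% of all genes. EdgeR called 0 of the 7, with 2 higher and 1 lower at an unadjusted p under 0.05, against 7.24% and 3.31% of all genes, and DESeq2 called 2, Cox8b and Ppargc1a, against 3.86% of all genes. The log2 fold change was -0.64 in Dio2, 0.53 in Cidea, 1.95 in Elovl3, 0.73 in Ppargc1a and 0.13 in Cox7a1. Skeletal muscle markers summed to 42760 and 68047 CPM in the aged pads and to 11217 and 15566 CPM in the young pads. The part of muscle in the values of this list was not tested. All genes of this list except Ppargc1a were named after their values were seen.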
